A study of Mus musculus with 8 samples.

Results

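The 5 livers described here carried TAZ S89A and had been injured with carbon tetrachloride (CCl4), and the question was how far they differed from each other. The gene rows described were selected on their own values, as those with a mean of at least 50 normalised counts over the 5 libraries of this group. The rule kept 11997 of the 35204 gene rows, against 21934 rows above 0 in any of the 5 libraries, and the kept rows held 99.4% to 99.5% of the signal of each library. The rule uses the mean level, so a gene can pass through 1 high library alone. Fmr1nb, for example, was at 474 normalised counts in replicate 4 and at most 9.23 in any other. Counts below of genes alone highest in 1 library therefore depend in part on the rule. The edge of the rule is not a natural one: Alyref2 lay just inside with a mean of 50.01 and Grhl2 just outside with 49.99. Since each gene was ordered by the same 5 values that are described, no test was applied to any spread, and the values below are descriptions.

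All 5 libraries came from livers of C57BL/6J mice that the labels call wild type, so no allele differs between them. The mice received TAZ S89A, placed behind the EF1a promoter, by HTVI, short for hydrodynamic tail vein injection, in which a large, fast injection carries plasmid DNA mainly into hepatocytes. EF1a is a promoter active in most cell types. They also received 30 injections of CCl4 over 10 weeks, 3 per week. Their age is not given in the sources used here. Labels number the libraries 1 to 5, which are called replicates 1 to 5 here, and do not spell out that each came from a separate mouse. The tissue was collected in pieces, and RNA was isolated with one of a pair of kits that the labels do not assign to libraries. The part of the piece taken and of the kit was not tested. The series also holds 3 control libraries, used below only for the size of their own spread.

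Wwtr1 encodes TAZ, a coactivator of transcription that the Hippo pathway keeps in the cytoplasm by phosphorylation, and S89A removes a phosphorylation site through which this happens. In the nucleus TAZ binds the TEAD transcription factors and switches on targets such as Ccn1 and Ccn2. CCl4 is turned into a radical by cytochrome P450 enzymes, mainly Cyp2e1 of perivenous hepatocytes, and repeated doses cause cycles of hepatocyte death, inflammation, regeneration and scarring. A piece of such a liver mixes hepatocytes, scar, immune cells and any tumour tissue in proportions that can differ between pieces. In these bulk samples, fewer cells of a type and less RNA per cell cannot be told apart.

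The normalised totals of the 5 libraries ran from 12.4 to 14.2 M. The step between low values put their depth at an estimated 12.4 to 33.8 M reads, and replicate 4 was the deepest, with 1 read worth 0.366 normalised counts against 0.905 to 1.09 in the other 4. Mitochondrially encoded transcripts took 3.66% of the signal in replicate 1, 4.38% to 4.90% in replicates 2, 3 and 5, and 6.96% in replicate 4. The Y-linked genes Ddx3y, Eif2s3y, Kdm5d and Uty were above 200 normalised counts in every replicate.

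The signal was led by the plasma proteins that hepatocytes secrete. Albumin (Alb) was highest in all 5 livers, at 563562, 471110.0, 785601, 553306 and 713489 normalised counts in replicates 1 to 5, which is 3.48% to 5.55% of the signal. Transferrin (Trf), the iron carrier of plasma, followed with a mean of 225359, and apolipoprotein E (Apoe), a lipoprotein ligand, with 172012. The rest of the 12 most abundant named genes were the complement component C3, fetuin (Ahsg), Apoa1, haptoglobin (Hp), the mitochondrial leucyl-tRNA synthetase Lars2, and 4 mitochondrially encoded respiratory subunits, mt-Co1, mt-Cytb, mt-Co3 and mt-Nd4. Normalised counts are not divided by transcript length, so this order is one of sequenced fragments and not of molecules.

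The 10 most abundant genes took 13.2% ± 0.929 (SD, n = 5) of the signal, and 450 to 613 genes were needed to reach 50% of it. Their spread was modest. C3 was at 161447, 158034, 145968, 115254 and 134611 normalised counts, an SD of 0.20 on the log2(value + 1) scale used for every SD and range below, and Alb had an SD of 0.30. Apoa1, the main protein of high-density lipoprotein, varied most of the 12, with an SD of 0.61. It was at 47544, 153329, 85251, 70239.5 and 88885 normalised counts, highest in replicate 2 and lowest in replicate 1.

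A 4-fold range between the livers was uncommon, but most genes spanned 1.5-fold or more. The median SD was 0.29 (quartiles 0.20 and 0.43), and the median gene spanned 1.64-fold from its lowest to its highest library. The range stayed under 1.5-fold for 4362 genes, 36.4% of the 11997, and reached 4-fold for 641 genes, 5.34%. Counting noise, estimated from the depth, had a median SD of 0.067, and 10598 genes had an SD over 2 times their own estimate while 137 lay under it. The spread was larger among scarce genes and also among the most abundant ones. Of the genes with a mean of 50 to 200, 11.3% had a range of 4-fold or more, against 2.87% from 200 to 1000, 3.56% from 1000 to 10000, and 9.24% of the 119 genes above 10000.

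**Figure D1:**
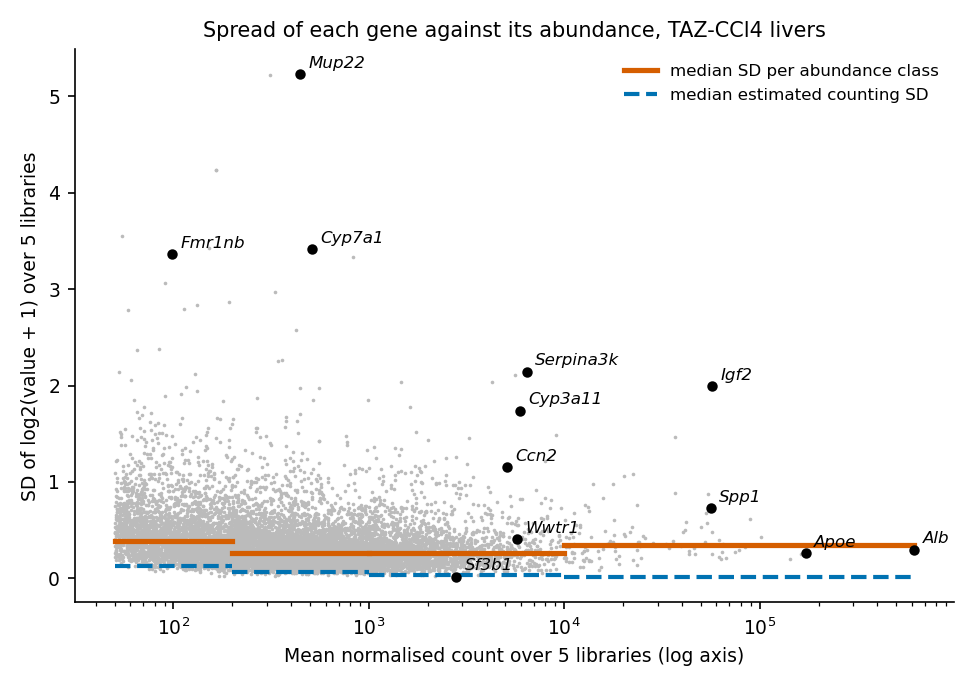
Spread of each of the 11997 genes over the 5 libraries (SD of log2(value + 1), vertical axis) against its mean normalised count (log axis). Grey points are genes, black points are named genes, orange lines are the median SD of each abundance class (0.39, 0.26, 0.26 and 0.35 from left to right) and blue dashed lines the median SD estimated from counting alone.

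The 12 steadiest genes among those with a mean of at least 500 were of several kinds. Sf3b1 (mm10 chr1:54985169-55027481, minus strand), a core subunit of the U2 spliceosomal particle, had the smallest SD, 0.018, at 2838, 2822, 2758, 2770.2 and 2809 normalised counts. Tax1bp1, an autophagy receptor, was at 2172, 2163, 2237, 2214 and 2134 (SD 0.027). Lonp1, the protease of the mitochondrial matrix, was at 1945, 1926, 1876, 1916 and 1849.7 (SD 0.03). The other 9 were the mRNA processing scaffold Sympk, the mitochondrial pyruvate carrier subunit Mpc1, the p53 inhibitor Mdm4, Tmbim4, the traffic factor Trappc8, the respiratory subunit Ndufa7, the histone gene H3f3a, the mitochondrial import factor Timm44 and the proton pump subunit Atp6v1b2, with SDs of 0.03 to 0.045. With totals made equal, the SD of Sf3b1 was 0.082, that of Lonp1 0.096 and that of Tax1bp1 0.080, so how steady these genes look depends on the scaling. The order among the 12 has no weight.

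Of the genes often used as references, those for ribosomal proteins were steadier than the typical gene and the common reference genes were near it. Over all genes, 36.4% stayed under 1.5-fold, 5.34% reached a 4-fold range and the median SD was 0.29. None of 25 cytosolic ribosomal protein genes reached a 4-fold range, 17 stayed under 1.5-fold, and their median SD was 0.19. Rps14 was steadiest at 6258, 5875, 6337, 5546 and 6282 normalised counts, and replicate 4 was lowest for 18 of the 25. Among 18 common reference genes, none reached 4-fold and 7 stayed under 1.5-fold (median SD 0.27). Gapdh, the glycolytic enzyme, was steadiest of these (SD 0.14), whereas Tfrc, the transferrin receptor, was at 1124, 1094, 487, 810.4 and 634 (SD 0.52) and B2m, the light chain of MHC class I, at 14612, 16118, 29121, 15487 and 25194 (SD 0.46).

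The lists that follow were near the typical gene in median SD. It was 0.26 for heat shock proteins, 0.26 for p53 targets and 0.33 for glycolysis and hypoxia, against 0.29 for all genes. Of 15 heat shock protein genes, 7 stayed under 1.5-fold and 1 reached 4-fold (Hspb1, highest in replicate 2 at 539), and Hsp90ab1 had an SD of 0.082. Of 16 p53 targets, 5 stayed under 1.5-fold and 2 reached 4-fold, namely the BH3-only death gene Pmaip1 at 183, 37.2, 140.3, 235 and 135 and the stress cytokine Gdf15 at 416, 206, 409, 701 and 1034. Of 25 genes of glycolysis and hypoxia, 7 stayed under 1.5-fold, among them enolase (Eno1, SD 0.09), and 3 reached 4-fold. These counts stand against 36.4% of all genes under 1.5-fold and 5.34% at 4-fold. Pecam1, the adhesion molecule that marks endothelium, was among the steadiest cell type markers, at 569, 542, 584, 512 and 565 (SD 0.074).

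The genes that varied most were of several unrelated kinds. Of the 20 with the largest SD, 11 code for enzymes or secreted proteins of hepatocytes: Cyp7a1, Ces3a, Ces3b, Rdh16f2, Cyp1a2, Ugt1a9, Acsm2, Serpina3k and the major urinary proteins Mup3, Mup20 and Mup22. Cyp7a1 (mm10 chr4:6265612-6275633, minus strand), which catalyses the rate-limiting step from cholesterol to bile acids, was at 3.27, 1123, 791, 52.4 and 595 normalised counts, with a range of 8.04 log2 units. It was nearly absent in replicate 1 and low in replicate 4, and higher in the other 3. Serpina3k, a plasma protease inhibitor, was at 1401, 12716, 9838, 407 and 7777, low in the same pair of livers.

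The rest of the 20 came from other cells or programmes. Fmr1nb, a gene known mainly from testis, was at 8.10, 9.23, 1.92, 474 and 0, and Cldn6, a claudin of embryonic epithelium, at 159, 139, 23.5, 1430.0 and 40.4. Both were highest in replicate 4. Hif3a, a member of the hypoxia-inducible factor family, was at 333, 195, 9.95, 422 and 5.53, high in replicates 1, 2 and 4 and near the floor in 3 and 5. Ccl20, a chemokine for lymphocytes and dendritic cells, was at 273, 1.11, 209, 65.7 and 112, and lowest in replicate 2. Clec4f, a lectin of resident Kupffer cells, was at 194, 33.8, 887, 28.98 and 576, and Ly6d, a surface protein of squamous and lymphoid cells, at 1.82, 16.6, 307, 24.3 and 216, highest in replicates 3 and 5 in each case. Slc5a9, a sugar transporter, was at 67.3, 1.71, 71.1, 173 and 13.8, again lowest in replicate 2.

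**Figure D2:**
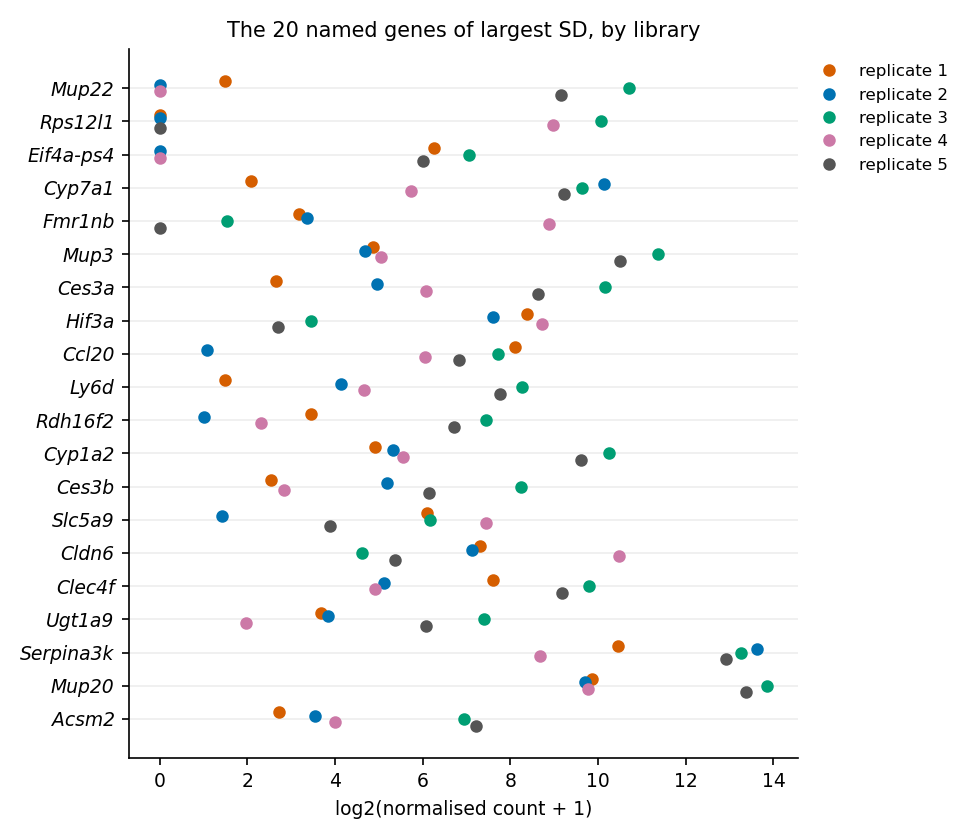
Level of the 20 named genes of largest SD in each of the 5 TAZ-CCl4 libraries (log2(normalised count + 1), horizontal axis; 1 coloured point per replicate, genes ordered by SD). Replicates 3 and 5 lie together at the high end for the 3 Mup genes, and replicate 4 stands alone for Fmr1nb and Cldn6.

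A large SD can also come from how reads are shared between copies. Rps12l1, a ribosomal protein copy, was at 0, 0, 1067, 500.2 and 0 and the pseudogene Eif4a-ps4 at 76.1, 0, 132, 0 and 63.3, and both resemble a highly expressed parent gene, so an exact zero in one library beside a high value in another is uncertain as a level. Rows annotated as pseudogenes made up 3.43% of the 641 genes with a 4-fold range and 1.18% of all 11997. The Mup, Saa, Gstm, haemoglobin and Serpina genes named here also have near-identical relatives, so their single values are uncertain even where the family total is not.

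Replicates 3 and 5 were the most alike of the 10 pairs, with a median absolute difference of 0.19 log2 units over the 11997 genes and 17 genes at least 4-fold apart. The other 9 pairs differed by 0.27 to 0.35 at the median and by 119 to 273 genes, replicates 2 and 3 being farthest by that count. Pearson's r across genes, which are not independent replicates, was 0.98 for replicates 3 and 5 and 0.91 to 0.94 otherwise. Over the 10303 rows with a mean of at least 50 in both groups, pairs of controls differed by 0.16 to 0.17 at the median and by 8 to 18 genes, and replicates 3 and 5 by 0.17 and 7 genes. The remaining pairs of treated livers differed by 0.25 to 0.33 and by 63 to 127 genes. No pair of libraries looked like 1 library deposited again: their differences had 8.41 to 53.2 times the variance that counting gives.

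The first principal component held 41.1% of the variance and separated replicate 2 (score 37.8), replicate 1 (15.2) and replicate 4 (11.9) from replicate 5 (-27.2) and replicate 3 (-37.7). The second, 26.9%, set replicate 4 (43.6) apart from the rest, and the third, 24.4%, ran from replicate 1 (35.2) to replicate 2 (-29.8). The last held 7.58% and separated replicates 3 and 5 from each other. No single axis therefore described the group.

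**Figure D3:**
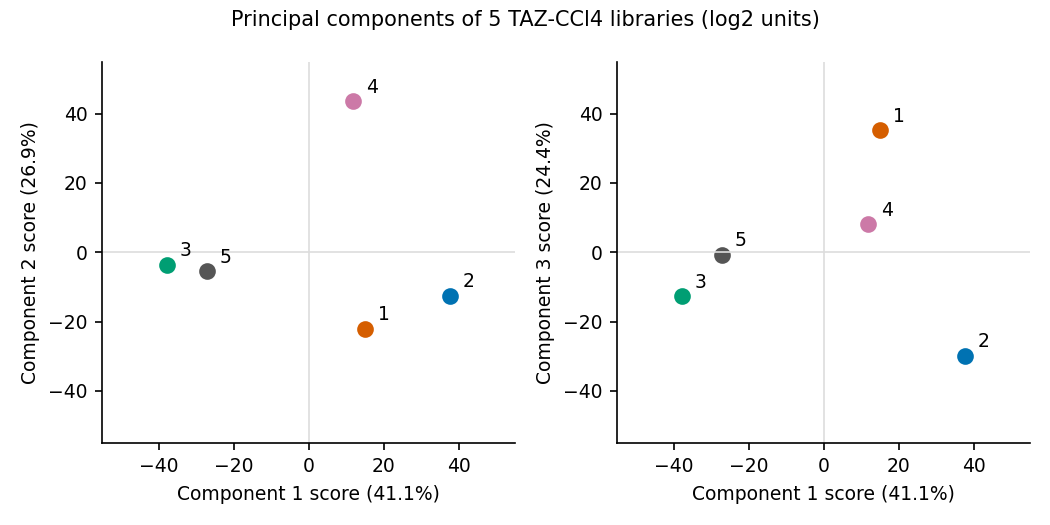
Scores of the 5 TAZ-CCl4 libraries on the first 3 principal components of log2(value + 1), centred per gene; each point is 1 library, labelled with its replicate number. Replicates 3 and 5 lie close together on the left, and replicates 4, 1 and 2 lie in 3 different directions.

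The 641 genes with a 4-fold range were sorted by which replicates stood above the largest gap between their ordered values. In 401 of them, 62.6%, the gap set 1 liver apart. With 5 values the largest gap often lies at 1 end, and the share over all genes is not given here. The 62.6% by itself therefore does not show that any liver was distinct. Replicate 2 was alone lowest for 112 genes and alone highest for 51, and replicate 4 alone highest for 67 and alone lowest for 43. Replicate 1 was alone lowest for 47 and alone highest for 28, replicate 3 alone lowest for 29 and highest for 11, and replicate 5 alone lowest for 7 and highest for 6. Replicates 3 and 5 stood together above the others for 45 genes and below them for 29, and replicates 3, 4 and 5 together above 1 and 2 for 47. The remaining patterns held 25 genes or fewer each. Of the 163 genes whose values are given here, 81 had an SD that was over 1.5 times smaller once 1 liver was left out. That liver was replicate 2 for 34 of them, replicate 4 for 25, replicate 1 for 14, replicate 3 for 6 and replicate 5 for 2. Most of the genes were named for their spread, some for 1 replicate set apart. The same count over all genes is not given here, so these numbers have no weight as a result about the livers.

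Below, each list is described by how many of its genes were highest or lowest in a given liver, and these counts are to be read against those of all 11997 genes. Of all genes, 22.00% were highest in replicate 1, 20.9% in replicate 2, 21.7% in replicate 3, 21.2% in replicate 4 and 14.1% in replicate 5. The lowest value lay in replicate 1 for 20.7%, in replicate 2 for 24.3%, in replicate 3 for 17.4%, in replicate 4 for 25.5% and in replicate 5 for 12.04%. Replicate 5 was thus least often at either end, and replicates 4 and 2 most often at the low end.

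**Figure D4:**
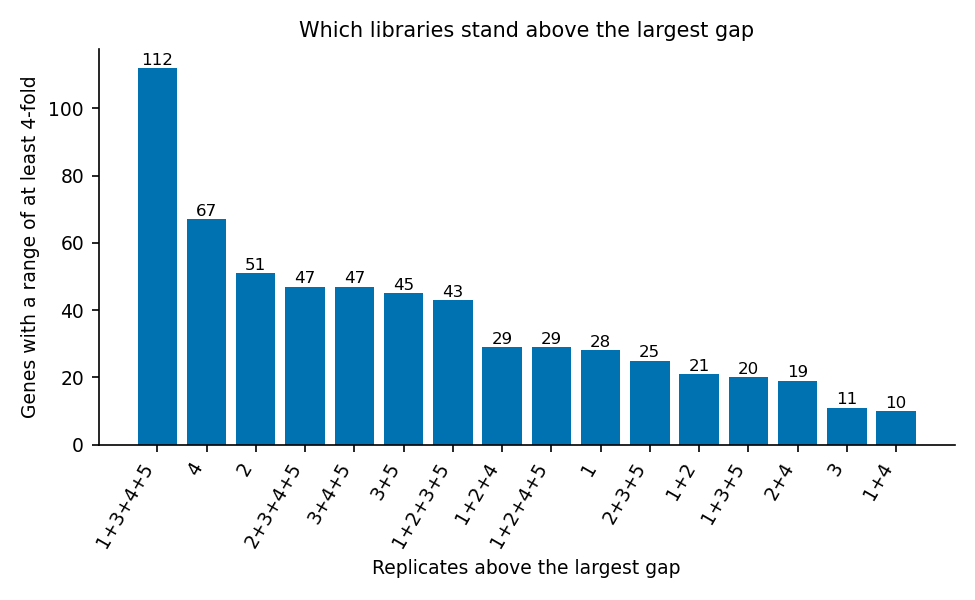
Number of genes with a range of at least 4-fold (bars, vertical axis) for each set of replicates that stood above the largest gap in the gene's 5 ordered values (horizontal axis, the 16 commonest sets). The highest bar, 112 genes, is replicate 2 alone low, followed by replicate 4 alone high with 67.

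Replicate 1 had the highest level of the TAZ machinery and of its targets. Wwtr1 (mm10 chr3:57455649-57575910, minus strand) was at 9021, 4339, 5114, 4892 and 5299 normalised counts, a range of 1.06 log2 units, and replicate 1 stood apart while the other 4 lay between 4339 and 5299. The table has 1 row for the gene, so transgene and endogenous transcripts cannot be told apart in it. Replicate 1 was highest for 6 of the 8 TAZ, YAP, TEAD and VGLL genes. Tead1 was at 2603, 1146, 1180.0, 1343 and 1547, Tead2 at 298, 156, 222, 249 and 206, Tead3 at 583, 476, 256, 355 and 244 and Tead4 at 560.1, 359.8, 288, 315 and 339.7, each highest in replicate 1. Yap1, the paralogue of TAZ, was nearly level at 889.6, 942, 948, 757 and 874 (SD 0.13). Vgll3, a TEAD cofactor, went another way, at 522, 181, 798, 240.1 and 788, highest in replicates 3 and 5.

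Of 21 YAP/TAZ target genes, 15 were highest in replicate 1 as deposited and 14 with totals made equal, none was lowest there, and 4 had a 4-fold range (19.05% against 5.34% of all genes). Their median deviation from each gene's own mean was 0.68 log2 units in replicate 1 and -0.36 in replicate 3, the lowest. Ccn2 (mm10 chr10:24595442-24598683, plus strand), a matricellular protein that promotes scarring, was at 14019, 3034, 1559, 3355 and 3557 normalised counts (SD 1.16, and 0.55 without replicate 1). Ccn1, its relative, was at 7051, 1096, 1722, 2019 and 2654, and Ankrd1, a nuclear ankyrin-repeat protein, at 4343, 732, 1441, 1698 and 2831 (SD 0.98). Replicate 1 was highest for all 3, and replicate 2 was lowest for Ccn1 and Ankrd1. Amotl2, an angiomotin that binds YAP and TAZ, was at 4579.7, 2877, 1873, 2313 and 2058, and Fjx1, a secreted Golgi kinase relative, at 643, 252, 108, 205 and 177. Dock5 was the steadiest of the list, at 326, 387, 360.4, 356 and 280.3 (SD 0.18).

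The promoters of Ccn1 and Ankrd1 are shown because both targets were highest in replicate 1 and both hold the core TEAD motif GGAATG. The 250 bases before the RefSeq start are given 5′ to 3′ (GRCm38.p6, the build also called mm10), at chr3:145649986-145650235 on the minus strand and chr19:36119845-36120094 on the minus strand, with matches on either strand in capitals (CATTCC is the same motif on the other strand).
Ccn1: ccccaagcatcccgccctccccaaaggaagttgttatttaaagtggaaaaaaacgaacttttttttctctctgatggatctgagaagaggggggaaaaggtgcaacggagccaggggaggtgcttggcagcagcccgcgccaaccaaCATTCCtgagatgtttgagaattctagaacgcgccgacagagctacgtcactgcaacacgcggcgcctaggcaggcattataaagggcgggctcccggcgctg
Ankrd1: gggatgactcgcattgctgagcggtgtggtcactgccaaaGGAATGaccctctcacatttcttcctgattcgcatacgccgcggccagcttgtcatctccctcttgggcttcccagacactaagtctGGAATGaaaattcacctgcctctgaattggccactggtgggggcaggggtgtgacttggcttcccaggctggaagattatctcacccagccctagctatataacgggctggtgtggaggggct
Of the 21 target genes, 15 had an entry in the promoter table, and 8 of their 17 promoters (47.1%) held GGAATG on either strand, against 12.6% of all 32851 promoters. A match is a description of the letters in this window. Ccn2 had no entry.

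Other genes alone highest in replicate 1 included Krt7, a keratin of bile duct cells, at 4473, 939, 536, 1753 and 944. Crb2, an apical polarity protein, was at 188, 15.02, 22.6, 27.8 and 27.7, and Tent5b, a poly(A) polymerase family member, at 224, 53.8, 12.7, 58.4 and 40.4. Immediate early and AP-1 genes were also high there: replicate 1 was highest for 11 and replicate 5 for 7 of 19, while replicate 2 was lowest for 14. The AP-1 subunit Fosb was at 125, 16.3, 39.2, 51.6 and 106 and Egr1, an early growth response factor, at 1264, 532, 2439.6, 3777 and 4342, with replicate 2 lowest for both. These genes are known to respond within minutes of handling, and the time from death to freezing is not given in the sources used here, so its part was not tested.

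Replicate 1 was also lowest for genes of several hepatocyte functions. It was lowest for 13 of 20 genes of bile acid synthesis and transport, Cyp7a1 among them, and 3 of the list had a 4-fold range. Slc10a1, the bile acid uptake transporter of hepatocytes, was at 150.3, 564, 663, 350.3 and 375, and Abcc3, an export pump, was level at 3643, 3049.6, 3785, 2909 and 3114. It was lowest for 14 of 26 genes of fatty acid oxidation and PPAR alpha targets, 7 of which had a 4-fold range. Fabp1, the fatty acid binding protein of liver, was at 478, 1165, 3636, 2133 and 1881 and Acot3, an acyl-CoA thioesterase, at 52.6, 756, 175, 381 and 122. Car3, a carbonic anhydrase abundant in liver, was at 476, 2455, 4835, 2053 and 6378. Among 19 fatty acid synthesis genes (2 with a 4-fold range), the desaturase Scd1 was at 1784, 9009, 14302, 4149 and 10761, lowest in replicate 1, and Acly, which makes cytosolic acetyl-CoA, was level (SD 0.074).

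Replicate 2 had the lowest level of proliferation genes. Of 26 cell cycle genes, 17 were lowest in replicate 2 and 8 in replicate 1, 15 were highest in replicate 5 and 9 in replicate 3, and 11 (42.3%) had a 4-fold range. None of the 26 stayed under 1.5-fold. Mki67 (mm10 chr7:135689784-135716361, minus strand), a marker of cycling cells, was at 533, 482, 1483, 952 and 1648 normalised counts, and Cdk1, the kinase that starts mitosis, at 310.1, 185, 842, 596 and 746. Cenpe, a kinetochore motor, was at 41.1, 52.1, 223, 114 and 282 (SD 1.22). In a pair of replication genes replicate 2 stood farther below the rest: the helicase subunit Mcm5 was at 416, 86.9, 458, 358 and 649, and Uhrf1, which maintains DNA methylation, at 431, 53.8, 479.7, 487 and 426. Exo1, an exonuclease of mismatch repair, was at 53.2, 5.58, 97.6, 62.5 and 126, and Rrm2, a subunit of ribonucleotide reductase, at 264, 121, 554, 857 and 541. Mki67, Cdk1 and Cenpe were low in replicates 1 and 2 alike, whereas Mcm5 and Uhrf1 were low in replicate 2 alone.

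The promoters of Cdk1 and Mki67 are shown because both hold the cell cycle homology region, TTTGAA, through which many mitotic genes are held silent outside division. The 250 bases before the RefSeq start (GRCm38.p6) lie at chr10:69352913-69353162 on the minus strand and chr7:135716380-135716629 on the minus strand, with matches on either strand in capitals.
Cdk1: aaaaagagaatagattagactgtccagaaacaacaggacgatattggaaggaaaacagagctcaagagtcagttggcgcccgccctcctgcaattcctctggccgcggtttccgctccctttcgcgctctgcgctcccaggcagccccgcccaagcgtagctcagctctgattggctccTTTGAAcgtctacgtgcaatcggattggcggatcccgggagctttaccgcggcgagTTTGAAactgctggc
Mki67: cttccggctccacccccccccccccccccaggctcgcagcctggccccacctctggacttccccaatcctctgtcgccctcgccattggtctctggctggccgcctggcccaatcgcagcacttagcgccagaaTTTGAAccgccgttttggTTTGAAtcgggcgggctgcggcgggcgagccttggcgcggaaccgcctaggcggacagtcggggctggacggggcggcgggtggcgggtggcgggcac
TTTGAA was present in 7 of 22 promoters of the list (31.8%), against 15.99% of all 32851 promoters on either strand.

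Interferon-stimulated genes were nearly all highest in replicate 3. Of 28, 26 were highest in replicate 3 and 19 lowest in replicate 2, and these counts were 25 and 22 with totals made equal. A 4-fold range was reached by 8 (28.6%), and none stayed under 1.5-fold. Cxcl10, a chemokine for activated T cells, was at 148, 31.8, 402, 369.7 and 383 and Cxcl9, its relative, at 80.9, 18.00, 427, 112 and 193. Rsad2 (viperin), an antiviral enzyme, was at 169.6, 138, 599, 298 and 456, and Ifit3, an antiviral RNA-sensing partner, at 283, 217, 906, 514 and 641. Replicate 5 came second for each of these 4 genes. Ddx58, the cytosolic RNA sensor RIG-I, had the smallest SD of the list, at 534, 611, 856, 650.4 and 814.

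The 250 bases before the RefSeq starts of Cxcl10, Ifit3 and Rsad2 (GRCm38.p6) are shown as examples of genes with this order that hold the interferon-stimulated response element (GAAA, any 2 bases, GAAA). They lie at chr5:92348890-92349139 on the minus strand, chr19:34583279-34583528 on the plus strand and chr12:26456453-26456702 on the minus strand, with matches on either strand in capitals.
Cxcl10: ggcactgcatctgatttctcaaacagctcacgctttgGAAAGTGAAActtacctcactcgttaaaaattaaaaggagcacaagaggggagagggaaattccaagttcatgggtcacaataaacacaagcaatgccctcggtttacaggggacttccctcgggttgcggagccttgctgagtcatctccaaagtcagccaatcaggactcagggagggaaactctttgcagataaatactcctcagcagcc
Ifit3: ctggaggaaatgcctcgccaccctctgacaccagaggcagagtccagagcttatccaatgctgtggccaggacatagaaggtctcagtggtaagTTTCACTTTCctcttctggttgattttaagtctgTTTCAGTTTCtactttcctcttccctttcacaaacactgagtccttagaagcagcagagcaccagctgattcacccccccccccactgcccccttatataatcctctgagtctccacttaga
Rsad2: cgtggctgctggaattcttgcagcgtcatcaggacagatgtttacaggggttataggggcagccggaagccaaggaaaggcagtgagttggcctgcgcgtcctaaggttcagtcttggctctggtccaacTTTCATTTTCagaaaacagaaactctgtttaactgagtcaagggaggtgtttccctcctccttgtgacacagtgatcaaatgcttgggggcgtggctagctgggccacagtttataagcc
Of the 28 interferon genes 18 had an entry, and 10 of their 20 promoters held the element on either strand, against 2.98% of all 32851.

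Antigen presentation genes were most often highest and lowest in the same pair of livers. Replicate 3 was highest for 12 and replicate 2 lowest for 9 of 14, with 1 reaching 4-fold. That gene was Ciita, the master regulator of MHC class II, at 138, 84.4, 399, 155 and 261, and the class II gene H2-Ab1 was at 3125, 1724, 5531, 4195 and 5092. Ccl2, a chemokine that recruits monocytes, was at 2469, 284, 1089, 1090.4 and 1556 and interleukin 1 beta (Il1b), an inflammatory cytokine, at 277, 34.97, 152, 121 and 182, both lowest in replicate 2.

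Replicate 2 was lowest for 13 of 22 NRF2 targets and metallothioneins, 9 of which had a 4-fold range. The glutathione transferase gene Gstm3 was at 1085, 306, 7765, 5926 and 6220.1 (SD 2.03, and 1.31 without replicate 2), and Slc7a11, the cystine importer, at 88.2, 21.2, 159, 33.8 and 209. The metallothioneins went the opposite way: Mt1 was at 2658, 2672, 589.6, 596 and 828 and Mt2 at 3251, 2402, 424, 506 and 707, highest in replicates 1 and 2. Replicate 2 was also lowest for 16 of 21 cholesterol synthesis genes, none of which reached 4-fold as deposited and 1 of which did with totals made equal. Cyp51, which demethylates lanosterol, was at 1102, 428, 1357, 1675 and 1302.

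Replicate 2 was highest for 15 of 24 urea cycle and amino acid breakdown genes, and 10 (41.7%) had a 4-fold range. Arginase (Arg1), the last step of the cycle, was at 5976, 17932, 6192, 3789 and 5809.6, and Mat1a, which makes the methyl donor of hepatocytes, at 11991, 52047, 17616, 7186 and 12513. Bhmt, which remethylates homocysteine, was at 8695, 82060.2, 49468, 9110.0 and 34747, with replicate 2 highest and replicates 1 and 4 lowest. Hal, which degrades histidine, was at 289, 1289, 1645, 415 and 1217, highest in replicate 3. Genes alone highest in replicate 2 were of several kinds. Ppp1r3b, which brings a phosphatase to glycogen, was at 308, 2387, 540.2, 436 and 577. Serpina3n, an acute phase protease inhibitor, was at 7259, 29249, 3729, 2153 and 3037, and Lcn2, an iron-sequestering lipocalin, at 18191, 42654, 10995, 7881 and 9336.

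Several genes known to be induced by glucocorticoids, picked as examples after their values were seen, were higher in replicates 1 and 2 than in 3 and 5. Fkbp5, a chaperone of the glucocorticoid receptor, was at 2169, 3461, 891, 1229.6 and 974, Tsc22d3 at 1261, 2787, 506, 1262 and 643, the zinc finger gene Zbtb16 at 479.6, 1070.3, 161, 175 and 169 and the mTOR inhibitor gene Ddit4 at 792, 889, 163, 284 and 307. The clock gene Per1, which also responds to glucocorticoids, was at 1984, 1847, 214, 831 and 458, and Per2 at 637, 660.0, 147, 324 and 171. Others went another way: Pck1, also known to be induced, was at 12252 normalised counts in replicate 1 and 4735 in replicate 2, with replicates 3 and 5 between, and Sgk1 was highest in replicate 1 alone.

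Of 19 genes of the core clock and its output, 5 had a 4-fold range, replicate 2 was highest for 9 and replicate 3 lowest for 8 (20.9% and 17.4% of all genes). Per3 was at 318, 528, 89.6, 295 and 130.2 and the output factor Dbp at 261, 485, 179, 568 and 123. Arntl (Bmal1), which peaks opposite to the Per genes, was at 194, 249, 413, 229 and 386, highest in replicates 3 and 5, and Clock was level at 602, 566, 534, 601 and 593 (SD 0.074). The hour of collection is not given in the sources used here, and its part in these values was not tested. The E-box CACGTG was present on either strand in 4 of 20 promoters of the list, against 6.02% of all 32851.

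The major urinary protein genes were highest in replicates 3 and 5. Summed, these genes, which code for pheromone-binding proteins and take much of the normal male liver's output, were at 979, 876, 19624, 922 and 12822 normalised counts. Mup20 was at 937, 834, 14835, 876 and 10637, Mup3 at 28.4, 24.6, 2623, 32.2 and 1456 and Mup22 at 1.81, 0, 1661, 0 and 568. Of 22 cytochrome P450 genes, 9 had a 4-fold range, replicate 3 was highest for 13 and replicate 2 for 7, and replicate 1 was lowest for 10. Replicate 5 was highest for 1 of them, and its median deviation, 0.088 log2 units, was near the 0.086 of replicate 2. Cyp3a11, a major drug-metabolising enzyme, was at 2665, 900.2, 18367, 1420.1 and 6324, and Cyp1a2, an enzyme of perivenous hepatocytes, at 29.3, 38.9, 1219, 45.7 and 784. Cyp2e1, which activates CCl4, was at 651, 1317, 2632, 458 and 811, highest in replicate 3. Cyp4a10, a PPAR alpha target, was at 36.2, 98.7, 363, 30.6 and 97.7, and Cyp2d10 was the steadiest, at 3599.5, 3589, 4956, 3429 and 4564.

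Genes whose profiles were most like those of the most variable genes were found by the smallest of the largest differences between centred log2 profiles. For Mup22 these were Mup3, Rdh16f2 and Cyp1a2, within 2.37 to 3.31 log2 units in every replicate. For Cyp7a1 they were Ces3b, Car3 and Nat8f2 (2.81 to 3.10), and for Fmr1nb they were Cldn6, Meltf and Clic6 (1.996 to 2.42). For Eif4a-ps4 they were Wfdc21, Clec4f and Vsig4 (1.98 to 2.14). The best matches of Rps12l1 were 4.72 or more away, so no gene shared its profile closely.

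Genes of the 2 zones of the lobule had no single highest liver. Among 13 perivenous and Wnt target genes, 6 had a 4-fold range, replicate 2 was highest for 5, replicate 3 for 4 and replicate 5 for 2, and replicate 1 was lowest for 6. Lect2, a secreted Wnt target, was at 32.7, 16.6, 288, 28.4 and 290.2, highest in replicates 3 and 5. Glul, glutamine synthetase, whose expression marks the innermost perivenous hepatocytes, was at 890.3, 1987, 1088, 994 and 858, highest in replicate 2. Among 17 periportal genes 6 had a 4-fold range, replicates 2 and 3 were each highest for 7, and replicate 4 was lowest for 7. Hsd17b6, an androgen-metabolising dehydrogenase, was at 203, 42.5, 1068, 509 and 755, and G6pc, which releases free glucose, at 969, 1039, 3619, 548 and 2878. Of 15 gluconeogenesis and fasting genes, 4 had a 4-fold range and replicate 4 was lowest for 9. Pck1, the committed step of gluconeogenesis, was at 12252, 4735, 7255, 2394 and 9120.1.

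Several genes of resident macrophages were highest in replicates 3 and 5. Cd5l, a protein secreted by Kupffer cells, was at 407, 54.8, 1261, 102 and 962, and Vsig4, their complement receptor, at 254, 39.7, 340.4, 35.8 and 339. The scavenger receptor Marco was at 41.7, 15.5, 234, 26.6 and 131. Clec4f, given above, had the same high and low libraries as Cd5l and Vsig4. Markers shared by all macrophages varied less, with Cd68 at 619.9, 368, 765, 620.1 and 655 and Adgre1 (F4/80) at 556, 308, 855, 483 and 881. Markers of lipid-associated macrophages did not share the order. Gpnmb was at 108, 576, 119.7, 419 and 241, highest in replicate 2. Trem2 was at 656, 521, 427, 716 and 580.5, highest in replicate 4. Spp1 and Mmp12, also on the macrophage list, were highest in replicate 4 too, at 115100 and 808. Summed, the macrophage list was highest in replicate 4 (138744), and most of that sum is Spp1. Of 19 macrophage genes 6 had a 4-fold range, and replicate 2 was lowest for 13.

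Several epithelial genes were highest in replicate 4. Clic6, a chloride channel family member of secretory epithelium, was at 102, 57.8, 46.2, 1073 and 55.7 normalised counts, and Tff3, a trefoil peptide of mucous epithelium, at 283, 909, 150.3, 3404 and 208. Vil1, the villin of brush borders, was at 157, 40.4, 285, 735 and 101, and Ggt1, a glutathione-cleaving enzyme of ducts and fetal liver, at 239.7, 118, 78.02, 964 and 179.6. Meltf, a melanotransferrin, was at 20.8, 63.1, 31.4, 451 and 12.01. Spp1, osteopontin, was at 47334, 30488, 38780.4, 115100.0 and 49074, highest in replicate 4, and it carried most of the summed level of the cholangiocyte list.

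Of 15 cholangiocyte genes, 5 had a 4-fold range, replicate 4 was highest for 7 and replicate 3 lowest for 8 (21.2% and 17.4% of all genes). Epcam, an adhesion molecule of ducts and progenitors, was at 613, 673, 199, 925 and 491, Krt19 at 196, 259, 70.4, 239 and 128 and Sox9, a transcription factor of ducts, at 1336, 1145, 978, 1656 and 1183. Epcam and Sox9 were highest in replicate 4, Krt19 in replicate 2 and Krt7, given above, in replicate 1. Of the 20 genes listed for secretory and squamous epithelium, 7 passed the minimum mean and 5 of these had a 4-fold range. Muc5b and Gkn2, which code for a gel-forming mucin and a stomach peptide, were at 0 in all 5. Psca, a surface antigen of stomach and bladder epithelium, was at 1805, 780.1, 364, 3486 and 662, highest in replicates 4 and 1. Spink1, a trypsin inhibitor, was at 1633, 2037, 3501, 2823 and 2832.

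Replicate 4 also had the lowest level of acute phase genes. It was lowest for 14 of 22 acute phase genes, 13 of which (59.1%) had a 4-fold range, and the median deviation there was -0.86 log2 units against 0.11 to 0.44 in the other 4. Orm1, orosomucoid, a drug-binding plasma protein, was at 1655, 1665, 2655, 129 and 2056, and Hamp, the iron hormone hepcidin, at 3118, 1982, 3403, 958 and 5351. The fibrinogen chains Fga and Fgg were at 58915, 95047, 54469, 18069 and 46540.3 and at 38475, 62440.3, 39614, 11807 and 32284. Saa1, serum amyloid A, was at 38.6, 187, 242, 40.7 and 162, low in replicates 1 and 4, and Cp, ceruloplasmin, was the steadiest, at 48562, 40212, 49077, 32639 and 46092. Of 25 hepatocyte secreted proteins, 5 had a 4-fold range and 15 were lowest in replicate 4. Their summed level was 1612130.0, 1881930.0, 2201860.0, 1361490.0 and 1920580.0 normalised counts.

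Most genes of the next list, of stress responses, were lowest in the same liver. Replicate 4 was lowest for 17 of 22 genes of the integrated stress and unfolded protein responses, a count that was 13 with totals made equal, and 2 reached 4-fold. Asns, asparagine synthetase, was at 362, 215, 385, 78.5 and 289.8, lowest in replicate 4. Psat1, an enzyme of serine synthesis, went another way, at 959, 194, 408, 768 and 520.0, lowest in replicate 2. All 13 mitochondrially encoded transcripts were highest in replicate 4 and lowest in replicate 1 as deposited, 12 of them lowest there with totals made equal, though none reached 4-fold. The subunit mt-Nd2 was at 25885, 36502, 41030.0, 67722 and 35459.9.

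The summed immunoglobulin rows and some plasma cell genes were also highest in replicate 4. The summed immunoglobulin rows were at 3147, 6254, 5667, 15834 and 7166 normalised counts. Jchain, which joins secreted IgA and IgM, was at 205, 362, 385, 1107 and 497, and the constant regions Igkc and Ighg1 were at 796, 1641, 1595, 5349 and 2004 and at 67.9, 65.1, 42.2, 393 and 42.6. Of 10 B and plasma cell genes 6 had a 4-fold range, and replicate 1 was lowest for 7. Others of the list went another way. Xbp1, which hepatocytes express as well, was the steadiest and was lowest in replicate 4, and Prdm1 was highest in replicate 3. Only 4 of 22 T and NK cell genes passed the minimum mean. Of these Cd4, which Kupffer cells can also carry, was at 25.3, 16.9, 122, 40.3 and 70.6 and the kinase Lck at 55.1, 43.3, 70.3, 92.6 and 61.6. Of 14 neutrophil genes 4 passed, with the summed level between 574 and 966 normalised counts.

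Igf2 was the most abundant gene with a large spread. Igf2 (mm10 chr7:142650766-142666816, minus strand), a fetal growth factor expressed from the paternal allele, was at 39055, 114439, 14045, 112853 and 4695 normalised counts, a range of 4.61 log2 units and an SD of 1.99. Replicates 2 and 4 lay highest, replicate 1 between, and replicates 3 and 5 lowest. Peg3, another paternally expressed gene, was at 16114, 15992, 9048, 19527 and 6119, and Grb10, an inhibitor of insulin signalling, at 2152, 1240.1, 726, 1331 and 509, both also lowest in replicates 3 and 5. Mest was at 65.2, 18.2, 131, 47.2 and 77.8 and Cdkn1c, a growth inhibitor expressed from the maternal allele, at 452, 83.3, 266, 333 and 355, both lowest in replicate 2. Igf2r, the receptor that clears Igf2, was the steadiest, at 1495, 1611, 1206, 1809 and 1243. Of the 8 imprinted growth genes that passed the minimum mean, 5 had a 4-fold range, and they followed no single order.

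Fetal liver and tumour markers differed in order too. Afp (mm10 chr5:90490737-90508907, plus strand), the fetal counterpart of albumin, was at 15514, 5188, 13429, 8584 and 5319 normalised counts, and Gpc3, a membrane proteoglycan of liver tumours, at 4292, 2295, 8368, 4249 and 7572. Afp was highest in replicates 1 and 3 and Gpc3 in replicates 3 and 5. Tspan8, a tetraspanin, was at 336, 341, 545, 1842 and 1368, highest in replicates 4 and 5, and Igf2bp3, an oncofetal RNA-binding protein, at 242, 65.8, 347, 385 and 208. Of 17 such genes 5 had a 4-fold range, replicate 4 was highest for 10 and replicate 2 lowest for 8. All 5 livers therefore carried Afp, Gpc3 and Igf2 transcripts, at levels that ranked the livers differently.

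Genes of the scar matrix varied less than the fetal liver and tumour markers, though more than the typical gene. Of 28 genes of fibrillar and basement membrane matrix none reached 4-fold, 6 stayed under 1.5-fold, and their median SD was 0.42 against 0.29 for all genes. Col1a1, the main fibrillar collagen chain, was at 1511, 1850.3, 2482, 3189 and 3315, and Col3a1 at 2702, 2894, 6634, 3942 and 7730.2, both highest in replicate 5 and lowest in replicate 1. Thbs1, a matricellular protein, was at 1016, 304, 290.1, 312 and 518, highest in replicate 1. Of 16 matrix remodelling enzymes 3 had a 4-fold range. Mmp13, a collagenase, was at 83.4, 10.3, 99.1, 28.8 and 161, and Mmp12, the macrophage elastase, at 101, 149, 149.8, 808 and 304. Of 13 stellate cell and myofibroblast genes 5 had a 4-fold range (38.5%), against 29.4% of the fetal liver and tumour markers. Acta2, the smooth muscle actin of myofibroblasts, was at 179, 77.6, 273, 237 and 525, and Ngfr, a receptor of portal and stellate cells, at 120.4, 12.4, 144, 42.4 and 139. The summed level of the list differed little, at 4099, 4452, 4816, 4552 and 5261.

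Of 17 endothelial genes, 5 stayed under 1.5-fold and 2 reached 4-fold, with a median SD of 0.37 against 0.29 for all genes. Clec4g, a lectin of sinusoidal endothelium, was at 126, 29.9, 129, 20.8 and 169, low in replicates 2 and 4. Lyve1, a hyaluronan receptor of sinusoids and lymphatics, was at 180.3, 194, 40.6, 29.8 and 47.99, high in replicates 1 and 2. Red blood cell genes, a measure of blood in the piece, were at summed levels of 3751, 3192, 1284, 2856 and 851, and Hbb-bs at 1926, 1581, 526, 1443 and 319, lowest in replicates 3 and 5. Of the 5 such genes that passed the minimum mean 4 had a 4-fold range. Alas2, also of this list, did not share the order of the sum, being highest in replicate 3 and lowest in replicate 2.

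Markers of neighbouring tissues were scarce. The summed pancreatic acinar genes were at 68.6, 59.1, 124, 117 and 144 normalised counts, mostly from the elastase Cela1, with Prss1, Prss2, Cpa1 and Pnlip at 0 in all 5. Skeletal muscle genes summed to 98.9 to 142, mostly from Des (77.6 to 119), which is also on the stellate cell list. Adipocyte and mesothelial genes summed to 586 to 929. Fabp4 (345 to 556) was the largest part of that sum, and Krt19 is also on the cholangiocyte list. Of the muscle list 1 gene passed the minimum mean, and of the adipocyte and mesothelial list 3 did. None of them reached 4-fold. Of 14 genes of the growth hormone and STAT5 axis 3 had a 4-fold range: the prolactin receptor Prlr was at 127, 635, 554, 166 and 408, Igfbp2 at 1717, 843, 2916, 570.0 and 2147 and Igfbp1, which binds insulin-like growth factors, at 6601, 3279, 4165, 1192 and 5040.4, while Stat5b was level (SD 0.10). Of 11 sex-biased liver genes 5 had a 4-fold range, and none of the 4 Y-linked genes did. Over all genes the share was 5.34%, so a count of none among 1, 3 or 4 genes has no weight.

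**Figure D5:**
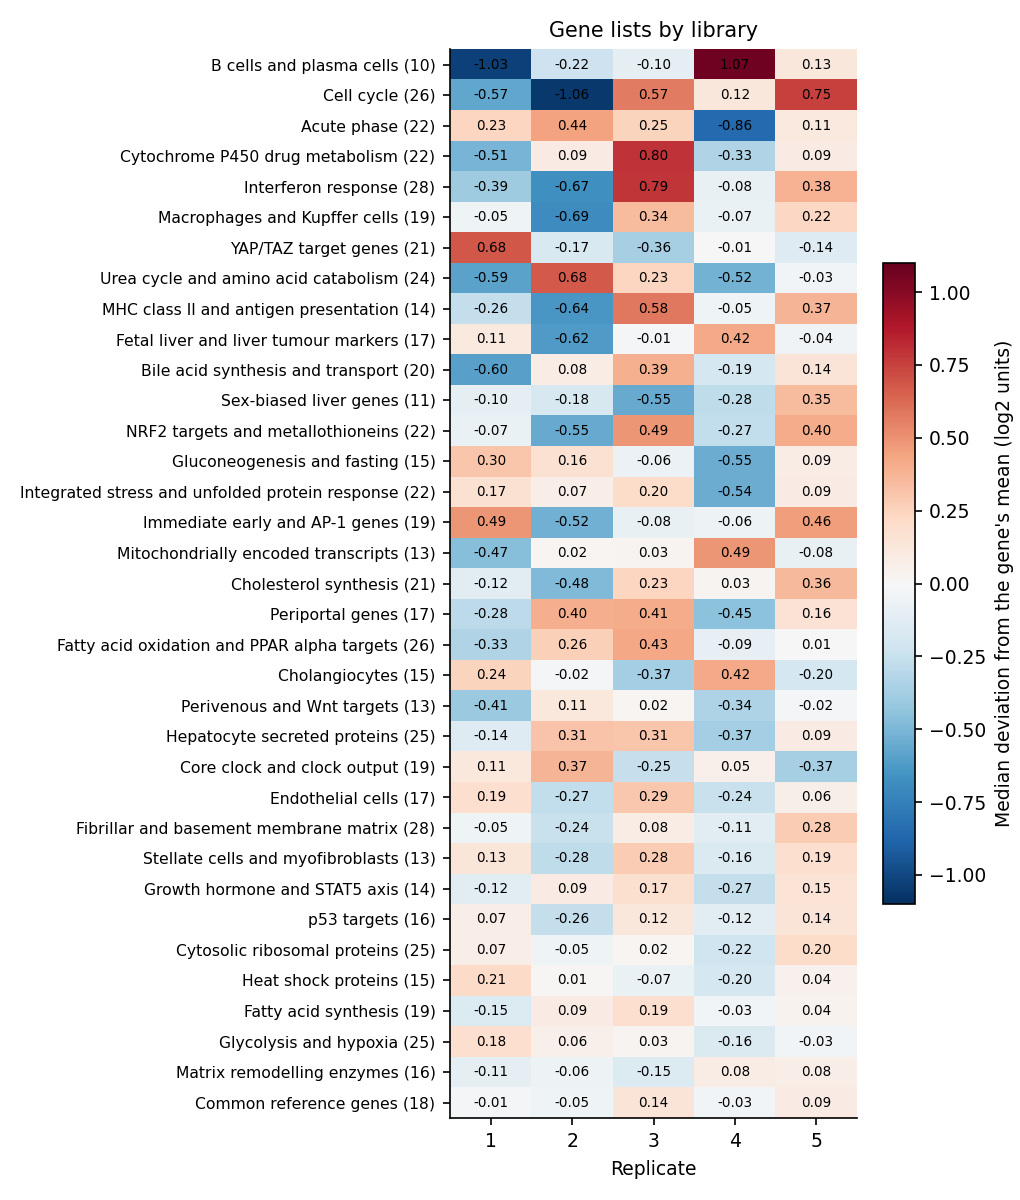
Median deviation of each gene list from its genes' own means, in log2 units, for each of the 5 TAZ-CCl4 replicates (columns; red above and blue below the mean; number of genes in parentheses; lists of at least 10 genes, ordered by their largest deviation). The cell cycle list runs from -1.06 in replicate 2 to 0.75 in replicate 5, the acute phase list is lowest in replicate 4 (-0.86), and the YAP/TAZ targets are highest in replicate 1 (0.68).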

How the data were processed

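Messenger RNA of liver pieces was enriched by its poly-A tail and read from both ends, per the labels' protocols. The values are a signal per gene, normalised counts that the authors made and deposited by dividing kallisto estimates by DESeq2 scaling factors, per the name of their table. The mm10 build and DESeq2 are also named per the submitters' processing notes. For versions and the transcript annotation, nothing is given in the sources used here.

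Groups came from the labels. Values were taken as deposited and as log2(value + 1). The SD and range over the 5 libraries, the largest gap between ordered values, principal components and centred profiles were computed with Python 3.11.15, numpy 2.4.6 and pandas 2.3.3. The search for gaps was tested on simulated data. No p-value was computed. The controls serve only for the size of their own spread, Dixon's critical value only lists distant samples, and a correlation over 5 libraries was not made. Deposited values do not give whole reads: 47.3% to 66.8% of those below 10 lay within 0.03 of a multiple of the commonest step, so depth is an estimate. Positions are from GENCODE M21, where 11913 of the 11997 symbols were found, and promoters from RefSeq.

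The members and the 45 gene lists were chosen with earlier results of these data known. The naming rule leaves out predicted genes and antigen receptor segments and takes the 12 highest means, the 20 largest SDs, the 12 smallest SDs among means of at least 500, for each replicate the 3 genes set apart farthest high and low, from each list the 2 largest and the smallest SD, for the 5 largest SDs the 3 genes of most like profile, and a few fixed genes such as Wwtr1. It gave 200 genes, of which some are not reported here. Other genes named are examples chosen after their values were seen. Genes that overlap or lie antisense to each other were not resolved. The alternatives tried were other pseudocounts, scalings, minimum means and measures of spread, and leaving out each replicate.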

Additional observations from a re-analysis of the deposited data

Results flagged for a closer look

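Among the 163 genes whose values are given above and 18 summed quantities, 27 had 1 replicate farther from the other 4 than the 95% critical value of Dixon's test for 5 samples (0.71 of the whole range). Chance flags about 1 in 20 groups when values are normal, and 7.23% of all 11997 genes pass on normalised counts. Most of the genes were named for their spread, so no weight is given to how many passed. The naming rule picked Cldn6, Clic6, Fmr1nb, Ccn2, Crb2, Tent5b, Ppp1r3b, Uhrf1 and Cyp4a10 because 1 replicate stood apart. The same gap put them past the critical value, so their flags are no separate test. Crb2, Tent5b, Fmr1nb and Meltf also reached the minimum mean only through their 1 high library.

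Replicate 4 was the distant sample for 11. It was highest for Cldn6 (1430.0 normalised counts), Clic6 (1073), Fmr1nb (474), Ggt1 (964), Meltf (451), Mmp12 (808), Spp1 (115100) and Tff3 (3404). It was also highest for the immunoglobulin genes Ighg1 (393) and Igkc (5349), and for the summed cholangiocyte genes (126816), which are mostly Spp1.

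Replicate 1 was the distant sample for 8 and highest for each: Wwtr1 (9021), Tead1 (2603), Tead4 (560.1), Ccn1 (7051), Ccn2 (14019), Fjx1 (643), Crb2 (188) and Tent5b (224). Replicate 2 was the distant sample for 7. It was highest for Arg1 (17932), Glul (1987), Mat1a (52047), Ppp1r3b (2387), Serpina3n (29249) and the summed secretory and squamous genes (46913), most of which is Lcn2, and lowest for Uhrf1 (53.8). Replicate 3 was highest for Cyp4a10 (363). No quantity set replicate 5 apart.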

How the results depend on the processing

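The median SD stayed between 0.26 and 0.42 under every alternative. The number of genes with a 4-fold range followed the minimum mean, at 1323 for a mean of 10, 275 for 200 and 3619 with none. The genes that set 1 replicate apart numbered 880, 167 and 2351 in the same order. Counts for each replicate alone highest or alone lowest were less stable, and 43 of 120 moved by over 1.5 times. Replicate 2 was alone lowest for 38 to 333 genes over the alternatives and replicate 4 alone highest for 25 to 246. Leaving out each replicate gave 403 to 580 genes with a 4-fold range, the lowest without replicate 2, which alone moved the count by over 1.5 times. It gave 295 to 430 that set 1 replicate apart, 4858 to 5895 under 1.5-fold, and a first component of 39.2% to 56.1%. Of the 20 genes with the largest SD, 12 remained by coefficient of variation, 18 by range, 19 with totals made equal and 14 to 17 without a replicate. Without predicted genes, antigen receptor segments and pseudogenes, a setting chosen after seeing the data, 590 genes had a 4-fold range.

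Making totals equal shifted whole libraries by -0.093 to 0.10 log2 units, and by up to 0.13 without Mup and mitochondrial genes. Of the 35 lists with 10 or more genes, 33 kept the same lowest replicate and 27 the same highest under all 4 scalings. With a pseudocount of 10 the cell cycle list had 7 genes with a 4-fold range in place of 11. With totals made equal, the SD of 5 of the steadiest genes given above was over 2 times as large. Leaving out 1 replicate lowered the SD by over 1.5 times for 81 of the 163 genes given above, most of which were named for their spread. Without replicate 2 the SD of Uhrf1 was 0.10 in place of 1.37. Without replicate 4 that of Orm1 was 0.32 in place of 1.77 and that of Clic6 0.49 in place of 1.87. Without replicate 1 that of Wwtr1 was 0.13 in place of 0.41 and that of Ccn2 0.55 in place of 1.16. No paired analysis was possible because only 1 group is described. With 5 libraries, and none named as a separate mouse, these spreads mix animal, piece and handling, which cannot be told apart.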
